A study of Saccharomyces cerevisiae with 11 samples.

Results

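The 38 genes described here encode, in the nucleus, the subunits of respiratory complexes II, III and IV, the ATP synthase with its inhibitor proteins, and the NADH dehydrogenases of budding yeast. They were chosen by gene symbol, and each of the 38 was found on the array with a probe set that carries 1 gene and was among the 5597 genes tested. The set holds 4 genes of complex II, 9 of complex III, 7 of complex IV, 13 of the ATP synthase (complex V), 2 of ATP synthase inhibitors and 3 of NADH dehydrogenases.

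All 11 arrays came from Saccharomyces cerevisiae CEN.PK113-7D, a prototrophic laboratory strain (MATa MAL2-8c SUC2), grown without oxygen on synthetic medium with glucose as the limiting nutrient. The reference group was 3 independent chemostats, which grew at 0.025 per hour. The other groups were 2 independent retentostats, vessels whose outflow passes a filter that keeps the cells in, sampled after 2, 9, 16 and 22 days at specific growth rates of 0.0084, 0.0024, 0.0011 and 0.00063 per hour. Each retentostat day is therefore 2 arrays, the days share their cultures, and every comparison with the chemostat shares the same 3 chemostat arrays; in a retentostat, the culture's age and its growth rate change together and cannot be told apart.

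In a respiring yeast cell, electrons enter the inner mitochondrial membrane through succinate dehydrogenase (complex II) or through the single-subunit NADH dehydrogenases that stand in for the proton-pumping complex I, which this yeast lacks. Ubiquinone carries them to the cytochrome bc1 complex (III), cytochrome c to cytochrome c oxidase (IV), and there they reduce oxygen; the proton gradient drives the ATP synthase. Without oxygen the chain has no terminal acceptor and ATP comes from fermentation, while the ATP synthase can run backwards and consume ATP. Many of these subunit genes are known as targets of the Hap2/3/4/5 activator and as genes repressed by glucose.

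Values are array intensities. A relative log2 difference is the log2 difference between group means minus the median of that difference over all 5597 genes, which was 0.04, 0.06, 0.14 and 0.23 on days 2, 9, 16 and 22 against the chemostat; the tests were run on the differences before that subtraction. A gene passed when its adjusted p was under 0.05 in limma's moderated test, with Benjamini-Hochberg adjustment over all genes. Within a group, arrays correlated with r between 0.968 and 0.992 over genes. The array's control probe sets gave 5′ to 3′ signal ratios, a measure of RNA integrity. For actin the ratio was 0.766 to 0.796 in the chemostats, 0.709 to 0.748 on day 2, and 0.669 and 0.734 on day 9. It was 0.736 and 0.472 on day 16, and 0.571 and 0.341 on day 22. A second control, TBP, did not show this late decline. Its ratio was 0.466 to 0.562 in the chemostats, 0.443 and 0.604 on day 2, and 0.489 and 0.461 on day 9. On day 16 it was 0.563 and 0.568, and on day 22 0.537 and 0.476. Only the actin ratio was used in the fits below. The anaerobic markers were read as a check of the label: DAN1, a cell wall mannoprotein gene expressed without oxygen, gave 6345 to 7185 in the chemostats and 1764 and 1985 on day 22. Of 10 anaerobic marker genes, 2 rose and 5 fell on day 22, when 31.8% of all genes rose and 10.8% fell. The 2 that rose were CYC7 and COX5B, hypoxic isoforms of chain genes. TIR1 did not pass, with means of 8811 in the chemostats and 10477 on day 22.

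The respiratory genes were higher in the retentostats than in the chemostats from day 9 on, in all 4 complexes. At day 9, 27 of the 38 members rose and 0 fell, while 22.4% of all genes rose and 15.6% fell. By day 16, 30 of 38 had risen and 0 fallen, with 26.6% of all genes higher and 12.8% lower. After 22 days, 29 of 38 rose and 0 fell, with 31.8% of all genes higher and 10.8% lower. QCR8 alone passed on day 2, where 1.05% of all genes rose and 0.5% fell, and 17 members had an unadjusted p under 0.05.

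The median relative log2 difference of the 38 was 0.36 on day 2, 0.77 after 9 days, 0.61 after 16 and 0.57 after 22, where the median of all genes is 0 by construction. All 38 members lay above the median of all genes on days 2 and 9, 37 of them on day 16 and 34 on day 22. The 7 members that passed on none of these days were COR1, QCR2, QCR6, ATP1, ATP2, ATP3 and NDI1. With the replicate numbers as a block, 3 members passed on day 2: QCR8, QCR10 and ATP17. That block joins chemostats 1 and 2 to the retentostats of the same number, which are separate cultures. It also leaves chemostat 3 alone in its level, and the same 3 members passed without chemostat 3. The day 2 call was absent without chemostat 1 or 2, or without any single array of days 2, 16 or 22. With a floor of 50, QCR8 did not pass on day 2 and SDH1 did. The counts of the last 2 days were lower in the fits that used the actin ratio, and so were the shares of all genes that passed. With the ratio as a covariate 27 members passed on day 9 (34.2% of all genes), 12 on day 16 (22.5%) and only SDH1 on day 22 (8.04%). Without the 2 arrays of lowest ratio, replicate 2 of days 16 and 22, 26 members passed on day 9 (33% of all genes), 5 on day 16 (17.8%) and 14 on day 22 (21.3%); days 16 and 22 are then 1 array each, assumed to vary like the other groups. With all 11 arrays and no covariate, 38%, 39.4% and 42.6% of all genes passed on these days in either direction. With each array scaled to 1 median, 18 members rose on day 22, and 19% of all genes rose. Counts also went down on days 16 and 22 with either array of that day left out, each day then being 1 array. The share of all genes that passed went down too with either array of day 16 or with replicate 1 of day 22 left out.

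**Figure D1:**
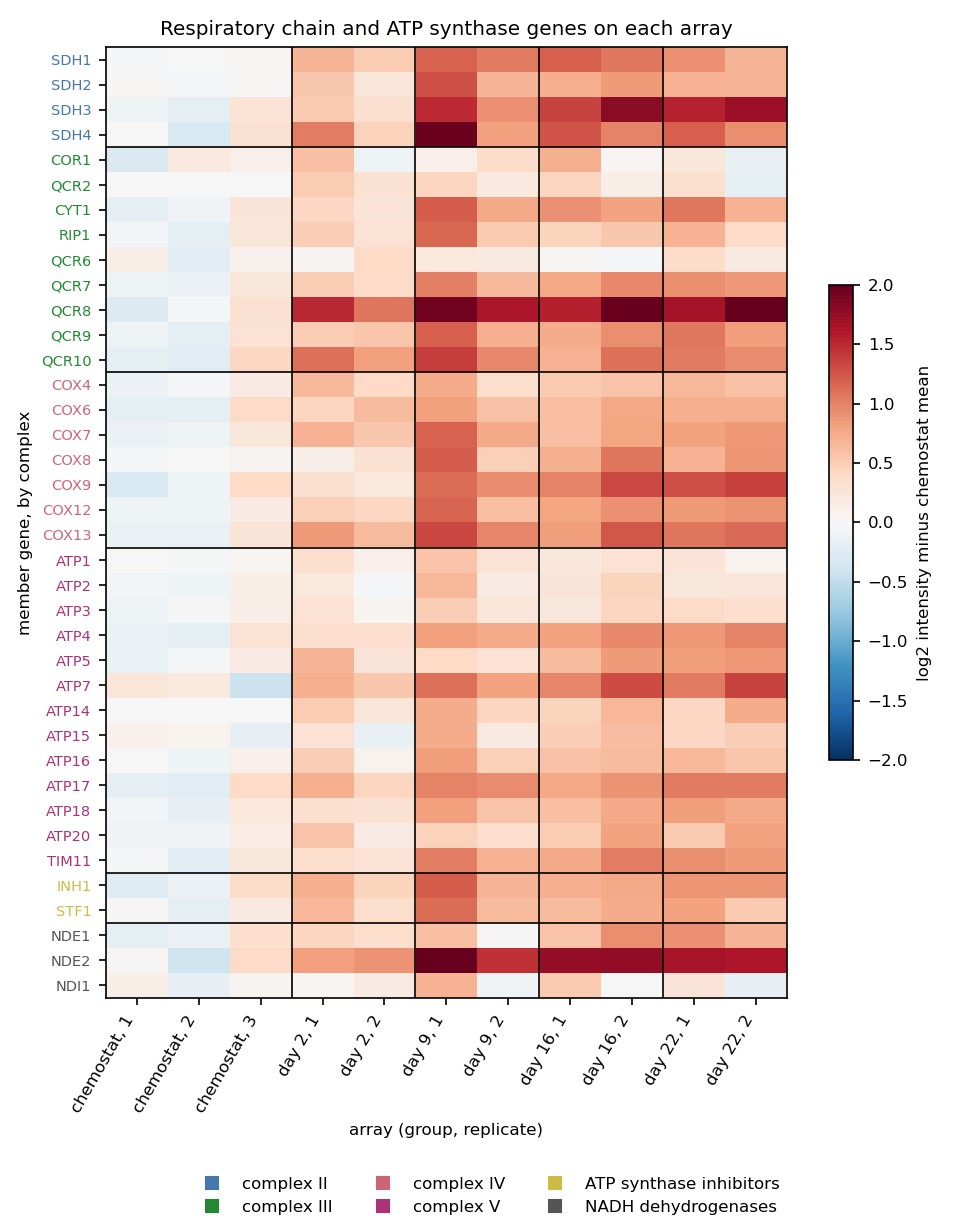
Each row is a member gene and each column an array; colour gives the log2 intensity minus that gene's mean over the 3 chemostats. Rows are grouped by complex, and most rows change from the chemostat columns to the day 9 columns. COR1, QCR2, QCR6, ATP1, ATP2, ATP3 and NDI1 passed the test against the chemostat on no day.

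Most members also separated array by array. Both day 2 arrays exceeded all 3 chemostats for 29 of the 38 members, as they did for 22.4% of all genes. The same held for 35 members on each of the days 9, 16 and 22, against 35.4%, 41.3% and 46.5% of all genes. No member had both retentostat arrays of a day below all 3 chemostats, while 16%, 25.1%, 24.8% and 21.2% of all genes did on the 4 days in turn. The members whose arrays overlapped the chemostats on day 22 were COR1, QCR2 and NDI1.

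The arrays of a group were not alike. Taking the median over the 38 members relative to all genes, the chemostats lay at -0.07, -0.09 and 0.16, the day 2 arrays at 0.51 and 0.26, and the day 9 arrays at 0.99 and 0.51. The day 16 arrays lay at 0.59 and 0.65, and the day 22 arrays at 0.63 and 0.51. Every retentostat array was thus above every chemostat on this measure, and replicate 1 on day 9 was the highest. Replicate 1 was the higher of the pair for 37 of 38 members on day 9, against 40.8% of all genes. Chemostat 3 was the highest chemostat for 30 of 38 members, against 44.9% of all genes. Without day 9 replicate 1, fewer members passed on day 9, and so did a smaller share of all genes. Day 9 is then 1 array.

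**Figure D2:**
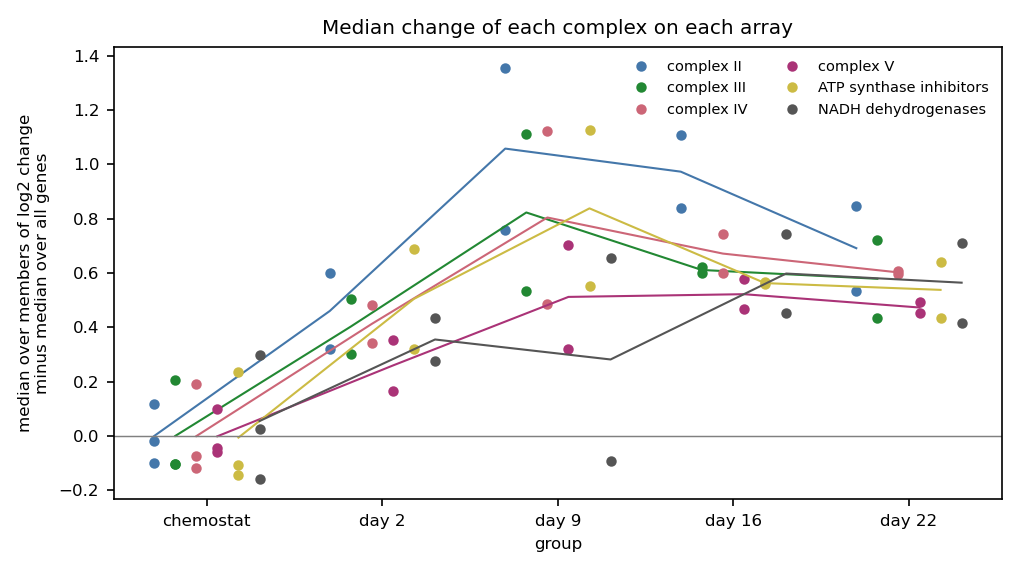
Median log2 intensity of each complex's genes relative to the chemostat mean and to all genes, by array (points) and group (lines join the means of the arrays). Each group of genes lies higher on day 9 than in the chemostat on average, complex II reaching 1.36 and 0.76 on the day 9 arrays, and the NADH dehydrogenases spread furthest between the 2 arrays of that day, at 0.66 and -0.09.

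Complex II, which oxidises succinate in the tricarboxylic acid cycle and passes its electrons to ubiquinone, was higher in all its subunit genes. All 4 subunit genes rose on days 9, 16 and 22, with median relative log2 differences of 1.09, 0.98 and 0.69. Of all genes, 22.4%, 26.6% and 31.8% rose on these days. SDH3, which encodes a membrane anchor subunit, gave 835, 790.4 and 1088 in the chemostats, 1290.4 and 1123 on day 2, 2521 and 1692 on day 9, 2275 and 3129 on day 16, and 2607 and 2938 on day 22. The arrays of days 9, 16 and 22 all lay above those of day 2, and those of day 2 above the chemostats. Its relative log2 difference from the chemostat was 0.39 ± 0.22 (SE; adjusted p = 0.38) on day 2, 1.14 ± 0.22 (adjusted p = 0.0023) on day 9, 1.44 ± 0.22 (adjusted p = 0.00047) on day 16 and 1.40 ± 0.22 (adjusted p = 0.00032) on day 22.

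SDH4, the gene of the second anchor subunit, gave 1973, 1614 and 2468 in the chemostats, 4032 and 2741 on day 2, 7714 and 3509 on day 9, 4730.0 and 3939.9 on day 16, and 4552 and 3781 on day 22. Its retentostat arrays all exceeded the chemostats, but day 9 replicate 1 was more than double its partner. At day 22 its relative log2 difference was 0.83 ± 0.31 (adjusted p = 0.019), a call that was lost with each array scaled to 1 median and without any single array of day 22 or chemostat 1 or 2. SDH1, the flavoprotein that carries the active site, went from a mean of 530.5 ± 10.4 (SD, n = 3) in the chemostats to 1145 ± 84.3 (n = 2) on day 9 and 921 ± 106 (n = 2) on day 22. SDH2, the iron-sulphur subunit, went from 2998 ± 79.8 (SD, n = 3) to 4833 ± 49.4 (n = 2) on day 22. Their relative log2 differences on day 22 were 0.56 for SDH1 (adjusted p = 0.002) and 0.46 for SDH2 (adjusted p = 0.014).

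Complex III takes electrons from ubiquinol to cytochrome c. At day 22, 5 of its 9 genes rose and the other 4, COR1, QCR2, RIP1 and QCR6, did not pass. Of all genes, 31.8% rose on that day. Whether the subunit genes differ from each other in their change was not tested. The 5 were QCR7, QCR8, QCR9 and QCR10, which encode small subunits, and CYT1, which encodes cytochrome c1. QCR8 gave 23.7, 28.3 and 35.3 in the chemostats, 81.6 and 60.6 on day 2, 109.5 and 89.4 on day 9, 84.8 and 124 on day 16, and 91.0 and 138 on day 22. Every retentostat array was above every chemostat, with no order among days 9, 16 and 22. Its relative log2 difference was 1.25 ± 0.26 (SE; adjusted p = 0.042) on day 2 and 1.73 ± 0.26 (adjusted p = 0.00024) on day 22, the latter being 3.90-fold on the deposited scale. These signals are low on the array, and a second QCR8 probe set stayed at the floor on all 11 arrays. The chemostat values lie under 50, and with a floor of 50 the day 2 call was lost and the log2 difference on day 22 was 1.17 before subtraction (adjusted p = 0.0037).

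QCR10 gave 830.4, 819.9 and 1274 in the chemostats, 2044 and 1680.4 on day 2, 2475 and 1860.0 on day 9, 1541 and 2051 on day 16, and 1958 and 1846 on day 22. Its retentostat arrays all lay above the chemostats, with the highest value on day 9. Its relative log2 difference was 0.92 ± 0.23 (adjusted p = 0.073) on day 2 and 0.76 ± 0.23 (adjusted p = 0.006) on day 22. At day 22 the remaining 3 that rose had relative log2 differences of 0.65 for CYT1, 0.66 for QCR7 and 0.72 for QCR9.

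The core subunit genes COR1 and QCR2 belong to a family of processing peptidases and do not carry electrons. COR1 gave 211, 297 and 277 in the chemostats, 393 and 241 on day 2, 277 and 335 on day 9, 426 and 266 on day 16, and 304 and 234 on day 22. The groups overlapped at every day. QCR2 gave 1222, 1233 and 1214 in the chemostats, 1737 and 1504 on day 2, 1643 and 1397 on day 9, 1647 and 1336 on day 16, and 1525 and 1069.8 on day 22. It lay above the chemostats on days 2, 9 and 16 and on both sides of them on day 22. The relative log2 differences on day 22 were -0.19 ± 0.27 for COR1 (adjusted p = 0.92) and -0.17 ± 0.19 for QCR2 (adjusted p = 0.82).

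The Rieske iron-sulphur protein gene RIP1 rose on day 9, with a relative log2 difference of 0.77 ± 0.21 (adjusted p = 0.011), and missed the threshold on day 22, with 0.30 ± 0.21 (adjusted p = 0.064). A control probe set for the same gene, which was not tested, gave 852 to 882.8 in the chemostats and 1451.8 and 1287.8 on day 22. QCR6, the acidic subunit, had a relative log2 difference of 0.04 ± 0.17 on day 22 (adjusted p = 0.21).

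**Figure D3:**
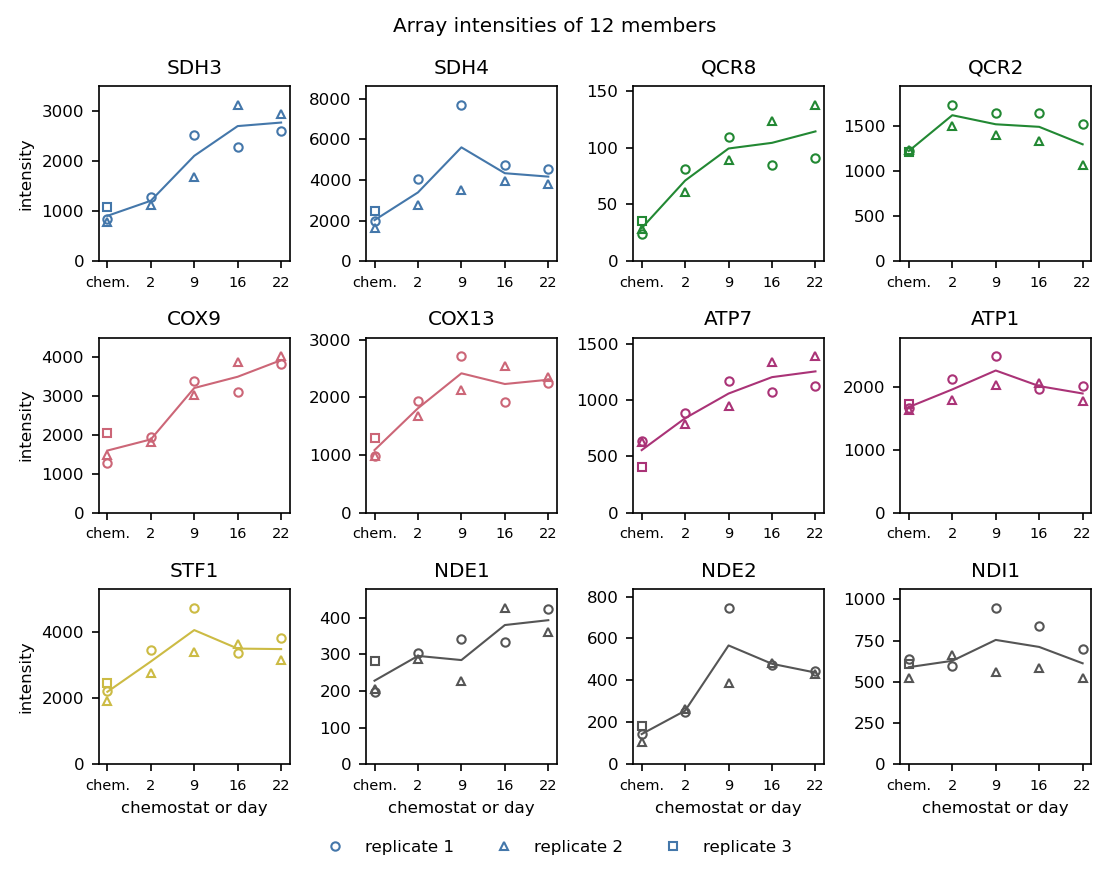
Array intensities (linear axes from 0) of 12 members in the chemostats and on each retentostat day; each symbol is 1 array, its shape giving the replicate, and lines join the group means. SDH3, QCR8, COX9, ATP7 and NDE2 lie above the chemostats on every array from day 9 on, while the NDI1 arrays overlap between groups.

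Complex IV, the enzyme that reduces oxygen, has its catalytic core encoded in mitochondrial DNA, and the 7 nuclear genes here encode subunits around it. All 7 rose on days 9, 16 and 22, as did 22.4%, 26.6% and 31.8% of all genes. Their median relative log2 differences were 0.81, 0.71 and 0.61. COX9 gave 1266, 1472 and 2049 in the chemostats, 1949 and 1816 on day 2, 3384 and 3023 on day 9, 3102 and 3884 on day 16, and 3823 and 4016 on day 22. Day 2 overlapped the chemostats, and every later array lay above both. The relative log2 difference was 0.23 ± 0.21 (SE; adjusted p = 0.56) on day 2, 0.97 ± 0.21 (adjusted p = 0.0034) on day 9 and 1.09 ± 0.21 (adjusted p = 0.00065) on day 22. COX13 gave 984, 987 and 1288 in the chemostats, 1945 and 1679 on day 2, 2713 and 2125 on day 9, 1922 and 2545 on day 16, and 2255 and 2360.1 on day 22. All retentostat arrays of COX13 were above the chemostats. Its relative log2 difference was 0.87 ± 0.19 on day 22 (adjusted p = 0.0014). At day 22 the other 5 lay between 0.39 for COX4 and 0.64 for COX12.

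The ATP synthase consists of the catalytic F1 head, a peripheral stalk that holds the head still, and a membrane part with the proton channel. At day 22, 9 of 13 genes rose, with 31.8% of all genes. The 4 that did not pass were ATP1, ATP2, ATP3 and ATP15, which all encode F1 subunits. On day 16, 10 of 13 rose, ATP15 among them, with 26.6% of all genes. Whether the F1 genes differ from the others was not tested. ATP16, the F1 delta subunit gene, did rise, with a relative log2 difference of 0.37 ± 0.18 (adjusted p = 0.018). The median over the 13 was 0.52 on day 9, 0.53 on day 16 and 0.43 on day 22, the lowest of the complexes II to V at each of these days; the difference between complexes was not tested.

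ATP1, the alpha subunit of F1, gave 1665, 1642 and 1736 in the chemostats, 2123 and 1799 on day 2, 2487 and 2038 on day 9, 1966 and 2063 on day 16, and 2024 and 1769.8 on day 22. The retentostat arrays lay above the chemostats on every day, the lowest of them, day 22 replicate 2, by a small margin. The relative log2 difference was 0.36 ± 0.16 (adjusted p = 0.054) on day 9 and -0.06 ± 0.16 (adjusted p = 0.40) on day 22. For the catalytic beta subunit gene ATP2 it was 0.00 ± 0.18 on day 22 (adjusted p = 0.31), and for the rotor subunit gene ATP3 it was 0.13 ± 0.16 (adjusted p = 0.086). For ATP15, the epsilon subunit, it was 0.22 ± 0.20 (adjusted p = 0.093).

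The largest values in complex V were in the peripheral stalk and the membrane part. ATP7, a stalk subunit, gave 639, 624 and 402 in the chemostats, 888 and 789 on day 2, 1169 and 946 on day 9, 1069 and 1337 on day 16, and 1120.5 and 1387 on day 22. Its retentostat arrays were all above the chemostats, and chemostat 3 was the lowest array. The relative log2 difference was 0.97 ± 0.23 (adjusted p = 0.002) on day 22. ATP17, subunit f of the membrane part, gave 671, 669.5 and 1022 in the chemostats, 1270.4 and 1038 on day 2, 1532 and 1491 on day 9, 1324 and 1439.9 on day 16, and 1584 and 1592 on day 22. Its relative log2 difference was 0.81 ± 0.20 (adjusted p = 0.0022) on day 22. At day 22 the other 6 that rose besides ATP16, ATP7 and ATP17 were ATP4, ATP5 and ATP14 of the stalk and ATP18, ATP20 and TIM11 of the membrane part, between 0.34 for ATP14 and 0.69 for ATP4.

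INH1 and STF1 encode small proteins that block ATP hydrolysis by the ATP synthase. INH1 gave 726, 788 and 1105 in the chemostats, 1411 and 1172 on day 2, 1976 and 1378 on day 9, 1417 and 1445 on day 16, and 1579.8 and 1576 on day 22. STF1 gave 2197, 1905 and 2448 in the chemostats, 3431 and 2759.9 on day 2, 4708 and 3377 on day 9, 3349.9 and 3621 on day 16, and 3805 and 3136 on day 22. Both had all retentostat arrays above the chemostats, and both rose on days 9, 16 and 22. At day 22 the relative log2 difference was 0.65 ± 0.22 for INH1 (adjusted p = 0.0077) and 0.44 ± 0.20 for STF1 (adjusted p = 0.018). Both calls were lost with each array scaled to 1 median; that of INH1 was also lost without day 22 replicate 2, and that of STF1 without chemostat 2 or day 22 replicate 1.

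**Figure D4:**
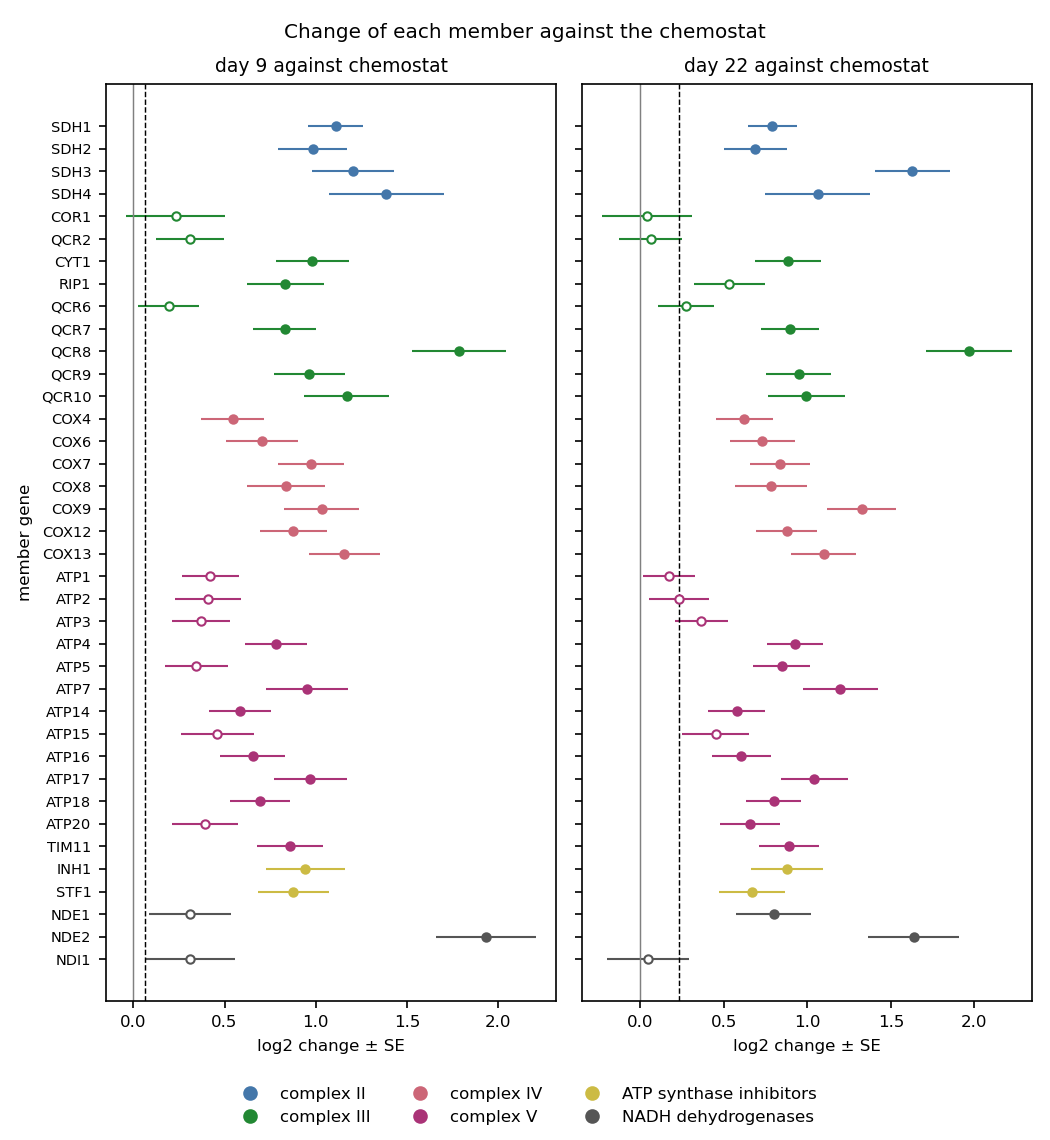
Log2 difference from the chemostat (before subtraction of the median) for each member on days 9 (left) and 22 (right), with bars for the standard error; filled points passed at an adjusted p under 0.05, open ones did not, and the dashed line is the median of all genes. At day 22 the open points are COR1, QCR2, RIP1, QCR6, ATP1, ATP2, ATP3, ATP15 and NDI1.

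The NADH dehydrogenases differed among themselves. NDE1 and NDE2 face the intermembrane space and oxidise cytosolic NADH, and NDI1 faces the matrix and oxidises the NADH made there. NDE2 gave 143, 107 and 182 in the chemostats, 248 and 264 on day 2, 745 and 388 on day 9, 476 and 483 on day 16, and 443 and 432 on day 22. Its retentostat arrays were all above the chemostats, and day 9 replicate 1 was almost double its partner. The relative log2 difference was 0.82 ± 0.27 (adjusted p = 0.14) on day 2, 1.87 ± 0.27 (adjusted p = 0.00053) on day 9 and 1.40 ± 0.27 (adjusted p = 0.001) on day 22.

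NDE1 gave 196, 205 and 283 in the chemostats, 304 and 287 on day 2, 341 and 227 on day 9, 333 and 426 on day 16, and 424 and 361 on day 22. Day 9 replicate 2 lay among the chemostats. NDE1 rose on days 16 and 22, with relative log2 differences of 0.61 ± 0.22 (adjusted p = 0.023) and 0.57 ± 0.22 (adjusted p = 0.015). The day 22 call was lost with quantile normalization, with 1 median per array, and without chemostat 1 or 2 or either array of day 22. NDI1 gave 638, 523 and 607 in the chemostats, 595 and 661 on day 2, 948 and 561 on day 9, 839.6 and 585 on day 16, and 701 and 525 on day 22. Its arrays overlapped the chemostats at every day. The relative log2 difference was 0.25 ± 0.25 (adjusted p = 0.33) on day 9 and -0.19 ± 0.25 (adjusted p = 0.90) on day 22. Whether NDE2 and NDI1 differ in their change was not tested.

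Among the retentostat days, few members passed. Over the 4 days, a moderated F test called 2, SDH3 (adjusted p = 0.026) and COX9 (adjusted p = 0.037), against 11.8% of all genes; with all 5 groups it called 27, against 39.5%. At day 9 against day 2, 0 members rose or fell by limma, while 9 had an unadjusted p under 0.05; of all genes 3.56% rose and 2.25% fell. With the replicate numbers as a block, chemostats included, COX9 and NDE2 passed there, and 7.45% of all genes passed. For 19 members both day 9 arrays exceeded both day 2 arrays, as for 28.9% of all genes, and for 0 both were lower, as for 21%.

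Between days 9 and 22, 0 members passed and 1 had an unadjusted p under 0.05; of all genes 1.43% rose and 0.143% fell. For 7 members both day 22 arrays exceeded both day 9 arrays, as for 34.9% of all genes, and for 2 both were lower, as for 10.1%. At day 22 against day 2, SDH3 and COX9 rose and 0 fell, with 13.5% of all genes higher and 3.23% lower. Their relative log2 differences were 1.02 (adjusted p = 0.0089) and 0.87 (adjusted p = 0.011). For 26 members both day 22 arrays exceeded both day 2 arrays, as for 43.7% of all genes, and for 0 both were lower, as for 17.2%. Neither SDH3 nor COX9 kept its call in every fit with 1 array left out, in the F test over 4 days or between days 22 and 2. Other members passed in some of these fits, in which the share of all genes that passed also moved. Leaving out a retentostat array leaves 1 array for its day. With the actin ratio as a covariate, and without the 2 arrays of lowest ratio, both the F test over 4 days and the comparison of days 22 and 2 called 0 members, so SDH3 and COX9 were lost; 2.27% and 3.45% of all genes then passed in the latter comparison. With all 5 groups the F test called 17 without chemostat 1 (26.3% of all genes) and 17 without chemostat 2 (25.5%).

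The genes around the chain were read from lists for their known roles. Of the 4 genes of the cytochrome c and COX5 pairs, which each have an aerobic and a hypoxic isoform, all 4 rose on day 22, when 31.8% of all genes rose. CYC7, the hypoxic cytochrome c gene, gave 288 to 393 in the chemostats, 1638 and 929 on day 2, 3908 and 2182 on day 9, and 1417 and 2205 on day 22, a relative log2 difference of 2.12 ± 0.31 (adjusted p = 0.00025) on day 22. Of 38 assembly and maturation factors of these complexes, 29 rose (76.3%) and 0 fell on day 22, with a median relative log2 difference of 0.61. COA2, an assembly factor of cytochrome c oxidase, had 2.49 (adjusted p = 0.00015), and COX23, needed for assembly of the same enzyme, had 1.60 (adjusted p = 4.4e-05). At day 22 against day 2, 18 of the 38 assembly factors rose (47.4%) and 2 of the 38 members (5.26%), with 13.5% of all genes higher. Of 7 further subunits, supercomplex factors and homologues, 6 rose on day 22, SHH3, a homologue of SDH3, having 2.60 (adjusted p = 7.6e-05), and COX26, a small subunit of complex IV, having 2.25 (adjusted p = 0.00025).

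Of 7 subunits encoded in mitochondrial DNA, 4 passed on day 22 and were higher, with 31.8% of all genes higher. The other 3 did not pass, OLI1, COX1 and ATP8. OLI1 and COX1 had strong signal, with means of 3466 and 2860 in the chemostats and 3836 and 2609 on day 22. ATP8 lay at the floor in both groups. The 4 that passed had low signal in the chemostats. COB, the cytochrome b gene of complex III, gave 15.3, 13.0 and 12 in the chemostats and 89.1 and 98 on day 22 (adjusted p = 1.2e-05). COX3, a core subunit of complex IV, gave 14.6 to 26.4 in the chemostats and 141.9 and 117.7 on day 22 (adjusted p = 6.4e-05). ATP6, of the proton channel, gave 12 to 22.9 and then 87.2 and 55.1 (adjusted p = 0.00037), and COX2 gave 12.5 to 23.3 and then 70.9 and 35.8 (adjusted p = 0.0032). The chemostat values of these 4 lie at or near the floor of 12, so no size of change is given. Yeast mitochondrial messengers lack the poly(A) tail that this labelling assay primes on, so these are differences in labelled signal. COX2, COX1, OLI1 and ATP8 were named after their values were seen. COX1 did not pass with the brightest of its 3 probe sets. The other 2 had low signal in the chemostats and were higher on both day 22 arrays. Neither was tested on its own. One gave 15.2 to 32.8 in the chemostats and 62.9 and 72.7 on day 22. For the last, the values were 30.3 to 42.2, and then 344.6 and 394. Of 17 activators of mitochondrial mRNAs, 5 rose on day 22, or 29.4%, near the 31.8% of all genes. Among the 5, PET54, which acts on the COX3 messenger, had 0.82 (adjusted p = 0.002).

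On day 22, 31.8% of all genes rose and 10.8% fell. Of 6 haem and oxygen regulators, 1 rose, 1 fell and 4 did not pass, HAP2, HAP3, HAP5 and ROX1. The regulator gene HAP4, which encodes the activation subunit of the Hap complex, gave 367 to 453 in the chemostats and 587 and 785 on day 22. Its relative log2 difference was 0.53 ± 0.19 (adjusted p = 0.0089). HAP1, the haem-responsive activator, fell by 1.33 on that scale (adjusted p = 0.003) on day 22. Of the 3 other electron donors, GUT2, the mitochondrial glycerol-3-phosphate dehydrogenase, fell by 1.00 on that scale (adjusted p = 0.012) on day 22. The other 2, CYB2 and DLD1, did not pass. Of 4 ADP/ATP and phosphate carriers, AAC1 rose, with 0.41 (adjusted p = 0.018), and 3 did not pass, PET9, AAC3 and MIR1. These lists are described by their counts, and how they compare with the members was not tested.

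The members that rose were more often short genes, as among all genes. Length here is the gene length in the annotation, which is not purely coding for every gene. Of the 10 members with a length over 900 bases, 4 rose on day 22, and of the 28 under 900 bases, 25 rose. Among all protein-coding genes, 24.9% of those over 900 and 42.2% of those under 900 rose. Over the 38 members the log2 difference on day 22 correlated with log2 gene length with Pearson's r = -0.333, and over 5434 protein-coding genes with -0.193. On day 2 these were -0.176 and -0.159, on day 9 -0.204 and -0.227, and on day 16 -0.154 and -0.225. Genes on the same arrays share RNA and labelling, and these are descriptions. The difference between the 2 day 22 arrays (replicate 2 minus replicate 1) correlated with length at -0.47 over the members and -0.0436 over all protein-coding genes. At day 16 the values were -0.469 and -0.0164, and on day 9 -0.0415 for the members. The actin ratio was lower in replicate 2 on days 16 and 22, and how much of the length relation moves with it was not tested.

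**Figure D5:**
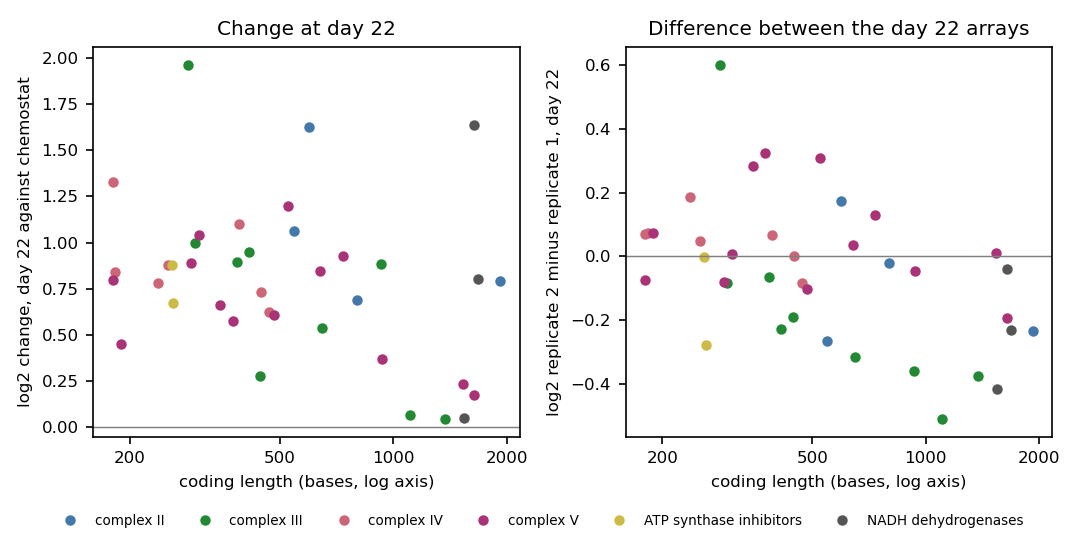
Left, the log2 difference between day 22 and the chemostat for each member against its gene length in bases on a log axis. Right, the log2 difference between the 2 day 22 arrays (replicate 2 minus replicate 1) against the same length. The axis label reads coding length, but the annotated gene length is plotted. Pearson's r over the 38 members was -0.333 on the left and -0.47 on the right.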

How the data were processed

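Labelled RNA of 11 culture samples was hybridised to Affymetrix YG-S98 yeast arrays. The deposited values are linear array intensities that the authors made with GCOS 1.2, per the submitters' processing notes; the software's settings are not stated in the labels, and its scaling was kept. Intensities under 12 were set to 12 and log2 was taken. For each gene the probe set with the highest mean log2 was used, and 59 genes that never exceeded the floor were left out, leaving 5597. One linear model over all arrays estimated 5 group means (limma 3.58.1, R 4.3.3, with 6 residual degrees of freedom), tests were two-sided, and p-values were adjusted by Benjamini-Hochberg over all genes. The script was tested on simulated data.

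The design text says that the duplicate retentostats were sampled at each time, so equal replicate numbers were taken as the same culture; deviations of equally numbered retentostat arrays from their group means correlated at 0.0656 to 0.394 over genes and at -0.13 to 0.73 over the 38 members, 3 of these 6 pairs of days being below 0. The main model has no block. Other scalings, floors, filters, probe set rules, blocks, an actin covariate and fits without single arrays were tried as alternatives. No batch is named in the labels, and the number of arrays limits the precision. Members, lists and the rule for naming genes (the 2 largest rises and falls of each complex at day 22, plus the dehydrogenases, the inhibitors and any member past the threshold at day 2; up to 3 risen and 3 fallen genes of each other list) were chosen with earlier results of these data known. The length division at 900 bases was chosen after the values were seen. Gene lengths and locus tags come from the RefSeq gene table, which matched every gene. The lengths are not purely coding for every gene, since 97.33% of those of protein-coding genes are multiples of 3.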

Additional observations from a re-analysis of the deposited data

How the results depend on the processing

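In none of the alternatives did a member fall in any comparison. Percentages in brackets are the shares of all genes that passed in the same fit, in either direction. With quantile normalization, 0 members passed on day 2 (1.04%), 1 on day 9 against day 2 (5.74%) and 8 on day 22 against day 2 (14.7%). With 1 median per array, 0 passed over the 4 days (8.94%), 0 on day 2 (1%) and 18 on day 22 (37.3%). Without a floor, 1 passed over the 4 days (7.51%) and 0 on day 2 (0.619%). With a floor of 50, 1 passed on day 9 against day 2 (7.11%), and the 1 on day 2 (1.95%) was SDH1 in place of QCR8. With a mean of at least 50, 2 passed on day 2 (2.73%) and 1 on day 9 against day 2 (8.56%). Without a filter, 1 passed over the 4 days (9.58%), 0 on day 2 (0.866%) and 1 on day 9 against day 2 (5.89%). With the mean of all probe sets, 0 passed on day 2 (1.52%). With the replicate block, 3 passed on day 2 (2.55%) and 2 on day 9 against day 2 (7.45%), and it moved no other count by over 1.5 times. With the culture as a random block (correlation 0.0787), 1 passed on day 9 against day 2 (8.67%). In fits of only the arrays compared, 1 passed over the 4 days and 0 on day 2; there 0 of all genes passed on day 2. With the actin ratio as a covariate, 9 passed over all 5 groups (19%), 0 over the 4 days (3.11%) and 12 on day 16 (22.5%). In that fit 1 passed on day 22 (8.04%) and 0 on day 22 against day 2 (2.27%). Without the 2 arrays of lowest actin ratio, 7 passed over all 5 groups, 0 over the 4 days, 0 on day 2, 5 on day 16, 14 on day 22 and 0 on day 22 against day 2. The cause of these differences was not tested.

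Leaving out 1 array at a time, the count ranged from 17 to 31 over all 5 groups, 0 to 5 over the 4 days, 0 to 3 on day 2, 16 to 30 on day 9, 12 to 31 on day 16, 19 to 31 on day 22, 0 to 9 on day 9 against day 2, 0 to 0 on day 22 against day 9 and 0 to 5 on day 22 against day 2. It was 17 over all 5 groups without chemostat 1 or 2, 16 on day 9 without day 9 replicate 1, 12 on day 16 without day 16 replicate 2, 19 on day 22 without day 22 replicate 2, and 9 on day 9 against day 2 without day 9 replicate 2. Of the 29 members that passed on day 22, 17 passed in every such fit. Across all genes, the calls on day 22 were 1782 higher and 604 lower as deposited, 1215 and 1009 with quantile normalization, and 1062 and 1025 with 1 median.

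Reversed values on day 22, as log2 differences before subtraction, were, for COR1, -0.25 with quantile normalization, -0.19 with 1 median, -0.10 without chemostat 1 and -0.15 without day 22 replicate 1. For NDI1 they were -0.074 with quantile normalization, -0.19 with 1 median, -0.04 without chemostat 2 and -0.16 without day 22 replicate 1. For QCR2 they were -0.17 with 1 median and -0.19 without day 22 replicate 1, and for ATP1 -0.063 with 1 median. The highest values with 1 array left out came without day 22 replicate 2, at 0.23 for COR1, 0.25 for NDI1 and 0.32 for QCR2. None of these genes had passed. Another 34 single-gene values kept their direction and missed the threshold, among them SDH4, NDE1, INH1 and STF1 with 1 median. Signal near the floor limits QCR8 and the mitochondrial genes.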
